A study of Mus musculus with 9 samples.

Results

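Epiblast stem cells given CHIRON for 48 h were compared with untreated epiblast stem cells sorted as dsRed2 positive. The comparison used 6 of the 9 arrays of the series, 3 treated and 3 dsRed2 positive, chosen by their labels, and left out the 3 arrays of dsRed2 negative cells. It asks what treated cells express beyond untreated cells that already carry the reporter. Epiblast stem cells are pluripotent cells with the character of the epiblast of the implanted mouse embryo. Both groups were male cells on a 129 background with a dsRed2 reporter, kept in medium with activin A at 20 ng/ml and bFGF at 10 ng/ml, and both are described as biological replicates. The treated group additionally received CHIRON at 3 µM for 48 h; the labels give no more than this name, commonly short for CHIR99021, which inhibits the kinase GSK3. The labels do not say what drives the dsRed2 reporter or whether treated cells were also sorted, so the effects of treatment and of sorting cannot be told apart here. No probe for dsRed2 was used, and the reporter label could not be checked on the arrays.

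When GSK3 is inhibited, β-catenin escapes degradation, enters the nucleus and works with TCF/LEF factors to switch on Wnt target genes, among them feedback inhibitors of the pathway itself. In the gastrulating embryo Wnt signalling at the posterior side of the epiblast, together with Nodal, sets up the primitive streak, through which cells pass to become mesoderm and definitive endoderm. The front of the streak forms the organizer and endoderm, and its later, caudal part builds the trunk and tail.

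On a log2 scale with quantile-normalized intensities, 12582 genes were tested with limma and Benjamini-Hochberg adjustment at 0.05. Of these, 5210 were called (41.4%), 2636 higher in treated cells (21.0%) and 2574 lower (20.5%). At least 2-fold changes were called for 858 genes upward (6.82%) and 852 downward (6.77%), and the values of the 2 groups did not overlap for 6865 genes (54.6%). Detection also switched between groups: 438 genes were detected on all 3 treated arrays and on no positive array, and 145 genes the other way round. Of these, 348 and 137 were called. Such genes enter the test through the group where they are high, so their calls and p-values are descriptions. The shares over all tested genes are the background for every count of genes below, and the median difference over all genes was −0.01. Quantile normalization gives every array the same distribution of values, which favours even shares up and down and a small median difference. With median centring instead, 2624 genes were called higher and 1327 lower. Each difference is given with its standard error in the fitted model (n = 3 arrays a group).

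**Figure D1:**
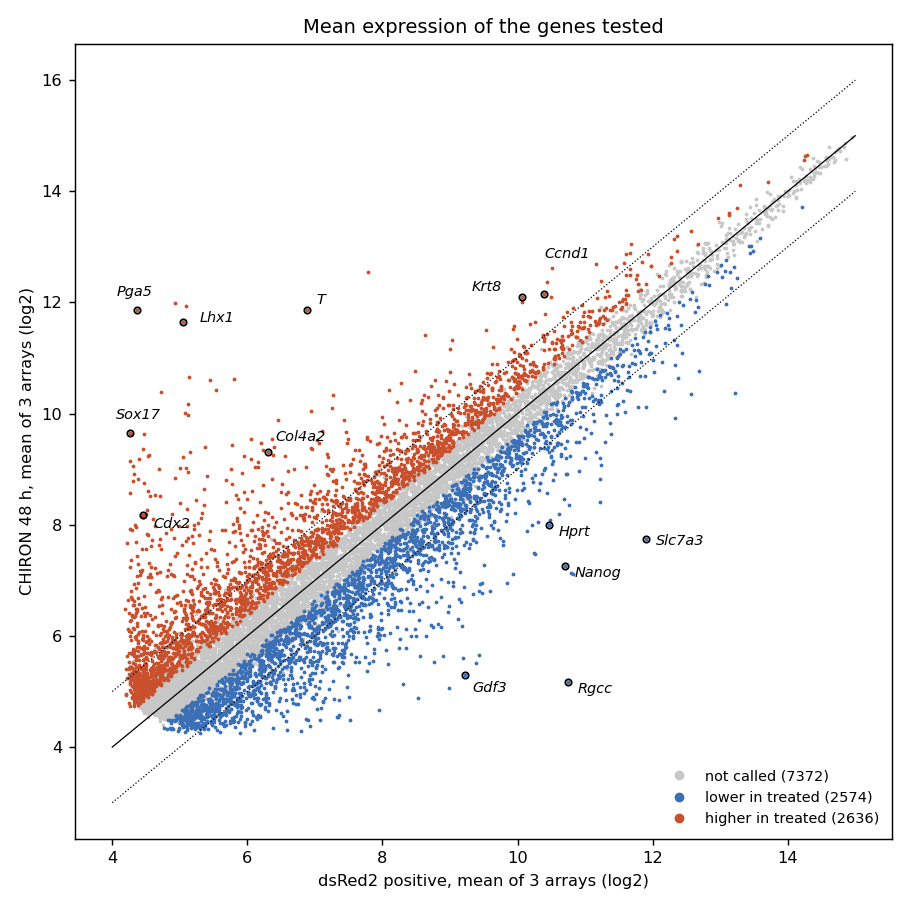
Mean normalized expression (log2) of each tested gene on the 3 dsRed2 positive arrays (x axis) and the 3 treated arrays (y axis), coloured by call; the solid line marks equal levels and the dotted lines 2-fold differences. The 2636 genes called higher and 2574 called lower lie on both sides of the line, with Pga5, Lhx1 and Sox17 far above it and Rgcc, Gdf3 and Nanog far below.

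The arrays were alike in brightness, with median probe signals of 96.9 to 109, and their number limits the precision. Detection differed by group: 37.3%, 37.7% and 38.2% of probes on positive arrays and 41.1%, 39.3% and 40.1% on treated arrays. The lowest detected signal was 4.73 to 4.77 on positive arrays and 4.63 to 4.69 on treated arrays. The part of this in the detection switches was not tested. The groups separated on the leading principal component, which carried 79.9% of the variance. Treated replicate 3 stood apart from the other treated arrays. On the component that held 10.0% of the variance it scored 29.3, against −16.6 and −18.3 for treated replicates 1 and 2. Those 2 arrays were the closest pair of all: their log2 values differed with an SD of 0.121 over 1606 bright genes, where either differed from treated replicate 3 with an SD of 0.340 or 0.349 and positive arrays differed among themselves with 0.205 to 0.282. With replicates 1 and 2 averaged into 1 sample, 4323 genes were called, and without treated replicate 3, 5212.

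The labels call all cells male, and 2 genes of the Y chromosome differed between the groups; these and the next genes were chosen after their values were seen. Ddx3y, a Y-linked RNA helicase, read 5.72, 6.04 and 7.40 on the positive arrays and 9.24, 9.25 and 9.27 on the treated arrays, a rise of 2.87 ± 0.38 (adjusted p = 0.000748). Eif2s3y, a Y-linked translation initiation factor, read 4.67, 4.58 and 6.37 against 8.06, 8.05 and 7.86, a rise of 2.79 ± 0.42 (adjusted p = 0.0015). Its probe passed detection on 1 positive array, replicate 3, and on all treated arrays, and the groups did not overlap for either gene. Uty, the other Y-linked gene tested, read 5.13, 4.77 and 4.83 against 5.28, 4.94 and 5.04, close to the lowest detected signal in both groups. It differed by 0.18 ± 0.15 (adjusted p = 0.383), and a difference would be hard to see at that level. In a fit of all 9 arrays the dsRed2 negative cells averaged 7.39 for Ddx3y and 6.75 for Eif2s3y, and positive minus negative was −1.06 and −1.57 (adjusted p = 1.00 for both). The part that different cell populations in the 2 groups play in the results below was not tested.

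The 6 genes given as markers of this contrast separated the groups on every array, where 54.6% of all tested genes did not overlap. The contrast was chosen with earlier results of these data known, so the calls and p-values of these 6 genes are descriptions. T, the brachyury factor of the primitive streak, read 5.85, 7.43 and 7.35 on positive arrays and 12.20, 12.06 and 11.35 on treated arrays, a rise of 5.0 ± 0.42 (adjusted p = 0.000113). Gsc, a homeobox factor of the organizer, read 4.45, 5.60 and 5.38 against 10.42, 10.79 and 10.79, a rise of 5.53 ± 0.28 (adjusted p = 8.28e-06). Cdx2, a caudal homeobox factor, passed detection on no positive array and read 7.91, 7.76 and 8.89 on treated arrays, at least 10.8-fold higher (adjusted p = 6.19e-05). All treated values of these factors lay above all positive values, and T was already detected on each positive array. The type IV collagen chain Col4a2 moved from 6.03, 6.48 and 6.41 to 9.16, 9.14 and 9.64 (3.00 ± 0.19, adjusted p = 2.42e-05). The simple-epithelial keratin Krt8 moved from 9.54, 10.19 and 10.49 to 12.10, 12.13 and 12.09 (2.03 ± 0.22, adjusted p = 0.000356). Gdf3, a Nodal-related ligand of pluripotent cells, went from 9.03, 9.21 and 9.44 to 5.36, 5.61 and 4.92, a difference of −3.93 ± 0.20 (adjusted p = 8.28e-06).

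The comparison with dsRed2 negative cells uses the same treated arrays, so its values are not separate evidence. In a fit of all 9 arrays no gene was called between dsRed2 positive and dsRed2 negative cells, and T differed by 0.65. That fit took all arrays as unpaired and pooled the spread of the groups, the treated one included. A pairing of positive with negative arrays was not tried. The fit thus did not set the positive cells apart from other untreated cells. With 3 arrays a group it does not show the 2 populations to be equal either. In the 9-array fit T was 5.02 above positive and 5.66 above negative cells, and Gsc 5.51 and 6.13. Krt8 was 2.05 and 1.38 above, and Gdf3 differed by −3.92 and −3.40.

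Of 17 tested Wnt target and feedback genes, 11 were called higher and none lower, with a median difference of 0.92 (0.28 with the deposited values). Of the 17, 2 passed the detection filter only through the treated arrays. Sp5, a zinc finger factor directly induced by β-catenin, read 4.95, 5.85 and 6.62 on positive arrays and 10.71, 10.63 and 10.54 on treated arrays (4.82 ± 0.36, adjusted p = 5.86e-05). Dkk1, a secreted inhibitor of the Wnt co-receptors, passed detection on no positive array and reached 8.19, 7.87 and 7.92, at least 9.49-fold higher (adjusted p = 2.13e-06). Axin2, a scaffold of the β-catenin destruction complex, rose from 7.15, 6.77 and 6.87 to 8.34, 8.34 and 9.0 (1.63 ± 0.21, adjusted p = 0.000624). In each of these the groups were apart, with treated replicate 3 the highest for Axin2 only. Nkd1, an intracellular Wnt antagonist, rose by 2.06, the cell cycle gene Ccnd1 by 1.76, the stem cell receptor Lgr5 at least 2.25-fold, and the TCF/LEF factor Lef1 by 0.92. Tcf7, Kremen1, Nkd2, Cdx1, Myc and Wif1 were not called, with differences of −0.34 to 0.36.

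The 300-base promoters of Sp5, Dkk1 and T are printed because these 3 strongly raised genes carry the TCF/LEF motif there. The motif searched was CTTTGAA or CTTTGAT on either strand, without regard to other motifs. It was present in 4 of the 8 called Wnt targets that had a promoter in the table, Sp5, Dkk1, Sp8 and Tnfrsf19, the last 2 each in 1 of several promoters. The genes looked up were the called Wnt targets and a set of key genes. Of the 20 with a promoter 6 held the motif, the others being T and Foxa2, the latter in 1 of several promoters. The raised genes Lhx1, Gsc, Cdx2, Axin2, Lef1 and Nkd1 were among those without it. Over all 32851 promoters of that length 8.65% hold it. In at least 1 promoter, 9.88% of genes and 6.80% of tested genes do. Each sequence is RefSeq, build GRCm38.p6, 5′ to 3′ along the gene, from 250 bases before the annotated start to 50 bases after it, with the motif in capitals. Sp5 lies at chr2:70474673-70474972 on the plus strand with the motif starting at position −104, Dkk1 at chr19:30549447-30549746 on the minus strand with the motif at −117, and T at chr17:8434173-8434472 on the plus strand with the motif, read on the opposite strand, at −235. A match describes these letters and does not show binding.
Sp5: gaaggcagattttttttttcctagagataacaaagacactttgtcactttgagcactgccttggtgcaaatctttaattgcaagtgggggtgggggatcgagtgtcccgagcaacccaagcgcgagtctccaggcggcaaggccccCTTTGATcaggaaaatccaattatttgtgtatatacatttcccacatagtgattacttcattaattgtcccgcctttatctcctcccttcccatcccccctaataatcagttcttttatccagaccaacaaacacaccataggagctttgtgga
Dkk1: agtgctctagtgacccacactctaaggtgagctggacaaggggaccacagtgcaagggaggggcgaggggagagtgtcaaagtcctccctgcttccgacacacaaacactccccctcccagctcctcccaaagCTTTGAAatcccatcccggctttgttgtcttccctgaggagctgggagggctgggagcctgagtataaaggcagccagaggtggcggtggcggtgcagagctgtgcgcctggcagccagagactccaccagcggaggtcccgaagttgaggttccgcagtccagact
T: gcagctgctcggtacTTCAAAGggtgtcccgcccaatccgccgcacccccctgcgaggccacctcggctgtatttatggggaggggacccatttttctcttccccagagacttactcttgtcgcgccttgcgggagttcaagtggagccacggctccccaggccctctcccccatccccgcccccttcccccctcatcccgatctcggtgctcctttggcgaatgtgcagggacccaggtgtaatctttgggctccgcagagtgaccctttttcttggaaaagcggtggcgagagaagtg

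Among ligands, receptors and carriers of the Wnt pathway, 19 of 30 tested were called higher, 11 were not called and none was lower (median 0.98), and 5 of the 30 passed the filter only through treated arrays. The ligand gene Wnt5a, which acts mostly outside the β-catenin branch, was detected on no positive array and read 8.26, 8.13 and 9.31 on treated arrays, at least 14.1-fold higher (adjusted p = 3.29e-05). The ligands Wnt7b, Wnt6, Wnt5b and Wnt3a rose by 1.93, 1.56, 1.52 and 1.03. Wls, which carries Wnt proteins to the cell surface, rose from 5.67, 6.07 and 6.02 to 8.32, 8.37 and 10.10 (3.01 ± 0.43, adjusted p = 0.00116). Rspo3, an agonist that stabilizes Wnt receptors, rose from 5.74, 5.26 and 5.23 to 9.25, 9.17 and 8.19 (3.46 ± 0.29, adjusted p = 0.000109). The last 2 genes show treated replicate 3 on opposite sides of replicates 1 and 2. Of the receptors, Fzd5 rose by 2.79 and Fzd10 by 1.49, whereas the kinase genes Gsk3a and Gsk3b, with −0.21 and −0.17, were not called. Without treated replicate 3, 1 gene of this list was called lower.

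**Figure D2:**
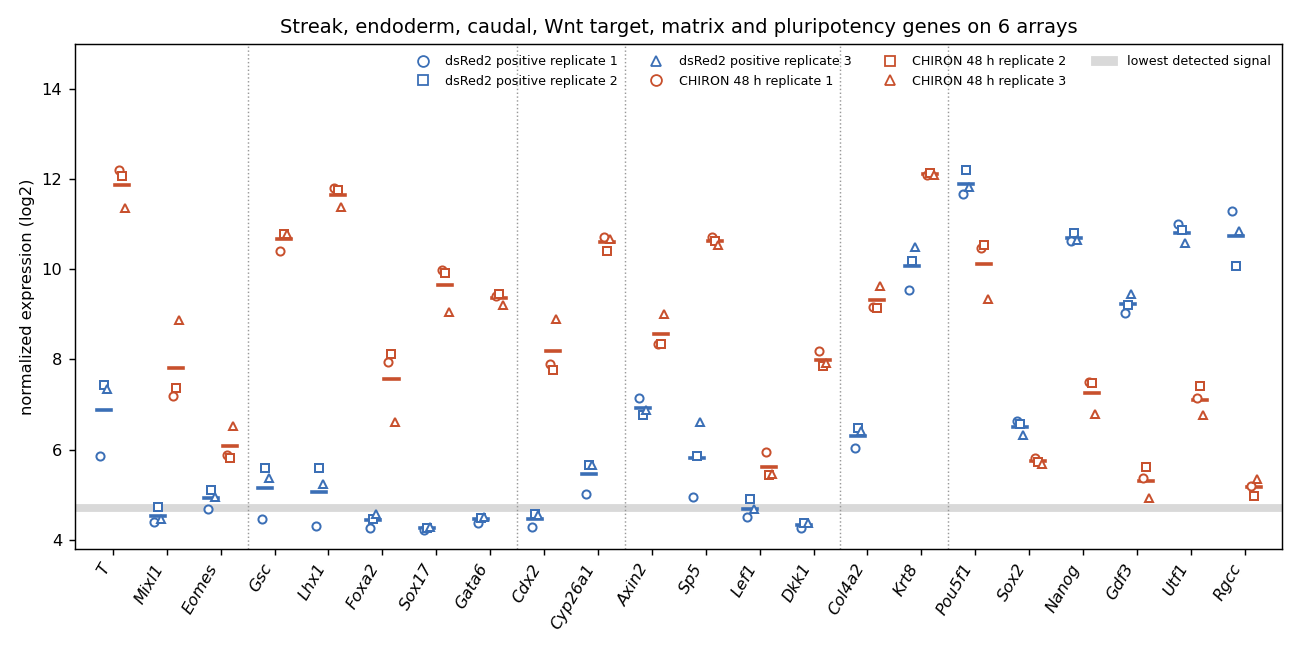
Normalized expression (log2) of 22 genes on each of the 3 dsRed2 positive arrays (blue) and 3 treated arrays (red); horizontal bars are group means and the grey band spans the lowest detected signal on the arrays. Streak, endoderm, caudal, Wnt target and matrix genes lie higher on the treated arrays, T at 11.35 to 12.20 against 5.85 to 7.43, and pluripotency genes lie lower, Nanog at 6.79 to 7.49 against 10.62 to 10.81.

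Primitive streak genes had a median difference of 2.97, with 12 of 16 tested called higher and 2 lower. Of the 16, 2 passed the detection filter only through the treated arrays. Mixl1, a streak homeobox factor, was detected on no positive array and read 7.18, 7.38 and 8.87 on treated arrays, at least 8.35-fold higher (adjusted p = 0.000504). Eomes, a T-box factor needed for endoderm, rose from 4.68, 5.10 and 4.96 to 5.88, 5.81 and 6.53 (1.16 ± 0.21, adjusted p = 0.00338). Fgf8, a ligand that moves cells away from the streak, read 6.25, 7.21 and 8.34 against 10.43, 10.58 and 10.00 (3.07 ± 0.45, adjusted p = 0.00128). Treated values were above positive values for all 3 genes, and Fgf8 was among the genes that varied most within the positive arrays. Mesp1, a factor of nascent mesoderm, read 7.25, 7.23 and 5.57 on treated arrays and was at least 3.82-fold higher (adjusted p = 0.00299). Of the 2 members that went down, Nodal, the ligand that induces the streak, fell by 0.88, and Fgf17, a ligand related to Fgf8, fell by 1.78. In bulk arrays, more cells of a type and more RNA per cell cannot be told apart, here or below.

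Organizer and node genes were higher in 11 of 15 tested members and lower in 1 (median 1.81), 5 of them tested only through the treated arrays. Lhx1, a homeobox factor of the organizer and anterior mesendoderm, read 4.31, 5.59 and 5.24 against 11.81, 11.75 and 11.39, a rise of 6.60 ± 0.30 (adjusted p = 6.06e-06). Shh, the ligand made by node and notochord, was detected on treated arrays only, at 8.61, 8.62 and 9.03, at least 16.1-fold higher (adjusted p = 2.1e-06). The BMP antagonists Chrd and Nog rose by 1.81 and 1.79. Chrd read 8.96, 8.80 and 7.17 on treated arrays and Nog 6.28, 6.45 and 7.41, so that treated replicate 3 was lowest for the one and highest for the other.

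Definitive endoderm factors were called higher in 13 of 17 tested members and lower in none (median 2.53); 6 of the 17 passed detection only through treated arrays. Sox17, which specifies endoderm, was detected on no positive array and read 9.99, 9.93 and 9.05 on treated arrays, at least 30.1-fold higher (adjusted p = 4.94e-06). Gata6, an endoderm zinc finger factor, read 9.42, 9.44 and 9.22, at least 24.5-fold higher (adjusted p = 6.69e-07), and Foxa1, a pioneer factor of gut endoderm, 8.89, 8.93 and 9.36, at least 19.9-fold higher (adjusted p = 2.1e-06). All positive values of these 3 genes were below detection. Foxa2, the pioneer factor shared by node and endoderm, read 7.94, 8.12 and 6.61, at least 7.02-fold higher (adjusted p = 0.0004). The chemokine receptor Cxcr4, often used to sort definitive endoderm, rose from 4.45, 4.52 and 4.95 to 8.67, 8.72 and 8.20 (3.89 ± 0.19, adjusted p = 7.87e-06). Cer1, a secreted inhibitor of Nodal, BMP and Wnt, rose to 8.39, 8.26 and 6.06 (3.07 ± 0.55, adjusted p = 0.00308). Treated replicate 3 was the lowest treated array for Foxa2, Cer1, Sox17 and Cxcr4.

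The 2 largest rises among genes with a symbol were in secreted digestive proteins. Pga5, a pepsinogen, was detected on no positive array and read 11.93, 11.87 and 11.79 on treated arrays, at least 139-fold higher (adjusted p = 2.14e-08). Spink1, a secreted trypsin inhibitor, read 4.45, 5.79 and 5.02 against 11.95, 11.90 and 11.96 (6.85 ± 0.29, adjusted p = 4.19e-06). Both were even among treated arrays and far from the positive ones. Of 10 tested genes for gut-type secreted proteins and apolipoproteins, 7 rose and 2 fell (median 1.30), and 3 of the 10 passed the filter only through treated arrays. The high-density lipoprotein component Apoa1 rose at least 9.21-fold (adjusted p = 3.47e-06). Apoe and Apoc1, 2 apolipoproteins that are neighbours in the genome, changed by −1.86 and −2.61.

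Several probes for alpha-defensins, antimicrobial peptides known from Paneth cells of the intestine, also rose, and treated replicate 3 was the highest array on each of those described here as higher. The genes of this family are near copies of each other, so a probe may bind RNA of several and the member cannot be settled. The Defa31 probe read 4.30, 5.08 and 4.77 against 9.44, 9.70 and 12.05 (5.68 ± 0.61, adjusted p = 0.000322). The Defcr-rs2 probe read 8.77, 8.93 and 11.17 on treated arrays and passed detection on no positive array, at least 29.4-fold higher (adjusted p = 0.000273). The Defa26 probe, at 6.12, 6.11 and 9.0, was at least 5.02-fold higher (adjusted p = 0.0135), and Defa1 was not called (1.23 ± 0.50, adjusted p = 0.0797). A further Defa1 probe differed by −0.23.

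Visceral and parietal endoderm genes, markers of extra-embryonic endoderm, were higher in 9 of 14 tested members and lower in 2 (median 1.49). Of the 14, 1 passed the filter only through treated arrays. Among those that rose, the collagen chain Col4a1 rose by 3.10, the laminin chain Lama1 by 2.61 and the sialomucin Podxl by 1.73, whereas another laminin chain, Lamc1, fell by 0.75 ± 0.12 (adjusted p = 0.002). Lrp2, the endocytic receptor megalin, fell from 8.73, 8.03 and 8.15 to 4.81, 4.60 and 6.01 (−3.16 ± 0.36, adjusted p = 0.000401). Trophoblast genes were higher in 7 of 8 tested members, 2 of them tested only through treated arrays (median 1.29). Those that rose include Cdx2, Eomes and Ascl2, which the streak, caudal or Wnt lists also hold, and the placental gene Plac1 at least 3.04-fold. Of 5 tested germ cell genes 3 rose (median 0.88), the receptor tyrosine kinase gene Kit from 4.95, 5.13 and 5.37 to 9.44, 9.28 and 9.23 (4.17 ± 0.14, adjusted p = 2.1e-06).

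Caudal genes rose in 12 of 16 tested members and fell in none (median 1.89), 5 of the 16 tested only through treated arrays. Cyp26a1, which breaks down retinoic acid in the tail bud, read 5.02, 5.67 and 5.66 against 10.72, 10.40 and 10.67 (5.15 ± 0.20, adjusted p = 2.74e-06). Evx1, a homeobox factor of the posterior streak, rose to 7.56, 7.52 and 9.50 (3.70 ± 0.48, adjusted p = 0.00069), and Nkx1-2, a marker of caudal progenitors, was at least 2.3-fold higher. Tbx6, the T-box factor of presomitic mesoderm, was not called: it read 5.47, 5.07 and 5.06 against 7.36, 7.35 and 5.19 (1.43 ± 0.52, adjusted p = 0.0571). Treated replicates 1 and 2 lay above all positive values of Tbx6 and treated replicate 3 lay within them, and without that array the difference was 2.15 (adjusted p = 5.46e-05).

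Of 39 Hox genes on the array 12 were tested, 8 of them only through the treated arrays, and 8 were called higher (median 1.30). Hoxb1, an early 3′ Hox gene, read 6.90, 6.66 and 5.69 on treated arrays, at least 3.18-fold higher (adjusted p = 0.00071). The trunk gene Hoxc6 read 5.53, 5.86 and 7.66, at least 3.04-fold higher (adjusted p = 0.00962), and Hoxc9 5.15, 5.33 and 7.60, at least 2.43-fold higher (adjusted p = 0.0453). Treated replicate 3 was thus lowest for Hoxb1 and highest for the trunk genes. The count of 8 depended on every positive array: leaving out positive replicate 1, 2 or 3 left 3, 4 and 3 calls.

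Paraxial mesoderm genes gave 3 higher and 1 lower of 6 tested (median 1.11). The forkhead factor Foxc1 rose by 2.15, and Tcf15, a bHLH factor of somites, fell from 8.45, 9.17 and 8.57 to 6.75, 7.22 and 6.75 (−1.82 ± 0.22, adjusted p = 0.000503). Lateral mesoderm, heart, vessel and blood genes gave 5 higher and none lower of 8 tested (median 1.22), 4 tested only through treated arrays. Leaving out any 1 positive array left 3 calls. Msx1, a homeobox target of BMP signalling, read 7.68, 7.59 and 9.05 on treated arrays, at least 10.3-fold higher (adjusted p = 0.000235), and the blood factor Runx1 5.0, 4.72 and 6.25, at least 1.49-fold higher (adjusted p = 0.0378). Etv2, a master factor of endothelium and blood, differed by 0.07 and was not called.

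BMP pathway genes were higher in 8 of 10 tested members (median 1.80), 2 of the 10 tested only through treated arrays. The BMP targets Id1 and Id3, inhibitors of bHLH factors, rose by 2.88 ± 0.13 (adjusted p = 6.25e-06) and 3.05 ± 0.14 (adjusted p = 6.19e-06). Bmp4 rose from 7.63, 7.90 and 7.80 to 8.95, 9.03 and 10.75 (1.80 ± 0.43, adjusted p = 0.0108), with treated replicate 3 highest. Nodal pathway genes split, 6 higher and 3 lower of 16 (median 0.20). Fst, a secreted trap for activin, rose from 5.36, 7.34 and 6.66 to 10.19, 9.94 and 9.52 (3.43 ± 0.44, adjusted p = 0.000696). Besides Gdf3 and Nodal, the Nodal transcription partner Foxh1 fell by 0.85, while the co-receptor Tdgf1 was not called (−0.56, adjusted p = 0.0591).

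FGF genes gave 7 higher and 3 lower of 15 tested (median 0.39), 1 of the 15 tested only through treated arrays. Fgf10 was detected on treated arrays only, at 7.82, 7.88 and 8.76, at least 10.6-fold higher (adjusted p = 3.08e-05). Among feedback and target genes of ERK signalling, Spry4 rose by 1.21, Etv5 fell by 1.51 and Dusp6 was not called (0.33). Notch genes gave 5 higher and 2 lower of 10 (median 0.70); the target Hes1 rose by 0.79, and the ligand Jag2 and receptor Notch3 changed by −1.08 and −1.29. Retinoic acid genes gave 7 higher and 3 lower of 13 (median 0.38), 2 of the 13 tested only through treated arrays. Beside Cyp26a1, the retinoic acid carrier Crabp2 rose by 0.99, whereas the nuclear receptors Rxra and Rarg changed by −1.42 and −0.80. Without positive replicate 1 or 3, 4 retinoic acid genes were called higher.

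**Figure D3:**
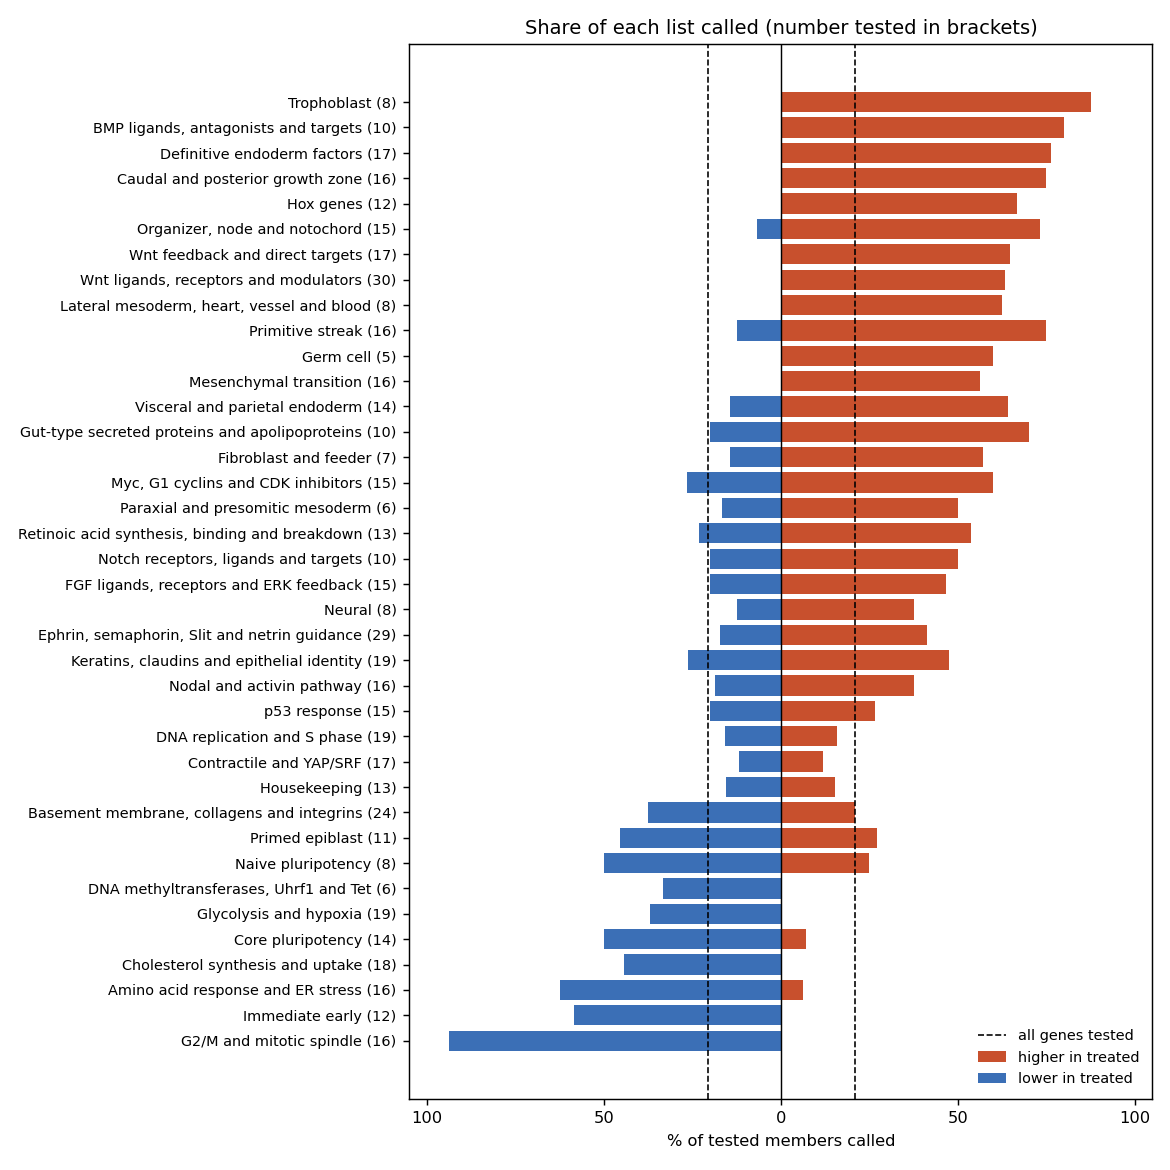
Percentage of the tested members of each gene list called higher (red, to the right) or lower (blue, to the left) in treated cells, with the number tested in brackets; dashed lines mark 21.0% and 20.5%, the shares over all tested genes. The trophoblast list, with 7 of 8 higher, reaches furthest to the right, and G2/M genes, with 15 of 16 lower, furthest to the left.

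Core pluripotency genes were lower in 7 of 14 tested members and higher in 1 (median −0.66). Nanog, a homeobox factor of the pluripotency circuit, fell from 10.62, 10.81 and 10.65 to 7.49, 7.48 and 6.79 (−3.44 ± 0.20, adjusted p = 1.75e-05). Utf1, a chromatin factor of pluripotent cells, fell from 11.00, 10.87 and 10.58 to 7.15, 7.40 and 6.76 (−3.71 ± 0.19, adjusted p = 8.28e-06). Pou5f1, the central pluripotency factor Oct4, fell from 11.68, 12.20 and 11.82 to 10.47, 10.53 and 9.34 (−1.79 ± 0.31, adjusted p = 0.0027). The groups did not overlap for any of the 3, and treated replicate 3 was the lowest array each time. All 3 were still detected on every treated array. Sox2, partner of Oct4, fell by 0.77 ± 0.13 (adjusted p = 0.00239), a call lost with median centring, and the zinc finger factor Sall4 rose by 1.05 ± 0.22 (adjusted p = 0.00649). Lin28a was not called, and without treated replicate 3 the higher count was 2.

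Genes of the naive state gave 4 lower and 2 higher of 8 tested (median −0.23), 1 of the 8 tested only through treated arrays. Without positive replicate 3 the lower count was 2. The higher count was 0 without positive replicate 1 or treated replicate 1 or 2. Dppa5a, an RNA-binding protein of pluripotent cells, fell from 9.09, 8.71 and 10.51 to 5.72, 5.55 and 5.71 (−3.78 ± 0.40, adjusted p = 0.000307), and Esrrb, an orphan nuclear receptor, fell by 2.12. Primed epiblast genes gave 5 lower and 3 higher of 11 (median −0.15), 1 of the 11 tested only through positive arrays. Fgf5, a ligand typical of the primed epiblast, rose from 8.22, 8.85 and 8.68 to 10.29, 10.54 and 9.92 (1.66 ± 0.21, adjusted p = 0.000667). Pou3f1, a POU factor of late epiblast and neural fate, fell by 1.5, and Enpp2, the secreted enzyme autotaxin, fell by 3.64. The methyltransferase gene Dnmt3b differed by −0.01. Of 6 tested genes for DNA methyltransferases, Uhrf1 and Tet enzymes, 2 fell (median −0.08): Tet1, which oxidizes methylcytosine, fell by 1.66 and the cofactor Dnmt3l fell by 1.64, the latter a call lost without positive replicate 2 or 3 or treated replicate 1 or 2.

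Neural genes gave 3 higher and 1 lower of 8 tested (median 0.47). Of the 8, 2 passed the filter only through treated arrays and 1 only through positive arrays. The 3 that rose were Irx homeobox genes, Irx3 from 5.98, 6.48 and 6.14 to 9.71, 9.70 and 8.98 (3.27 ± 0.22, adjusted p = 4.07e-05), Irx5 at least 5.84-fold and Irx1 by 0.47. The gene that fell was Sox3, a SoxB1 factor of neural progenitors and epiblast, detected on no treated array and at least 2.28-fold lower (adjusted p = 0.000389). Nes and Ncam1, common neural markers, were not called.

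Genes of the mesenchymal transition were higher in 9 of 16 tested members and lower in none (median 1.21), and treated replicate 3 was above the mean of treated replicates 1 and 2 in 14 of the 16. Snai1, which represses E-cadherin, rose from 4.59, 5.43 and 5.29 to 8.0, 7.85 and 8.06 (2.87 ± 0.22, adjusted p = 6.27e-05). The matrix protein fibronectin, Fn1, rose from 6.48, 6.59 and 6.60 to 8.93, 8.87 and 9.89 (2.67 ± 0.26, adjusted p = 0.000203). Cdh1, E-cadherin itself, read 8.95, 9.10 and 8.79 against 8.52, 8.75 and 7.82 and was not called (−0.59 ± 0.23, adjusted p = 0.076). Its groups did not overlap. Without treated replicate 3, 1 member of this list was called lower.

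Epithelial genes gave 9 higher and 5 lower of 19 tested (median 0.55). Krt7, a simple-epithelial keratin, rose from 5.26, 5.41 and 5.61 to 7.86, 7.88 and 7.43 (2.30 ± 0.17, adjusted p = 5.13e-05), and Krt18, the partner of Krt8, by 0.95. The tight junction gene Cldn3 fell from 8.87, 7.89 and 8.30 to 6.21, 5.95 and 5.21 (−2.56 ± 0.31, adjusted p = 0.000518), while Cldn6 of the same family rose by 1.08. Without positive replicate 1 or 2, or without treated replicate 3, 3 were called lower. Matrix genes gave 5 higher and 9 lower of 24 (median −0.34), 2 of the 24 tested only through treated arrays. Tenascin, Tnc, read 6.76, 6.91 and 9.18 on treated arrays (3.04 ± 0.56, adjusted p = 0.0036), and the integrin chain Itga3 fell by 1.99. With median centring the counts turned to 7 higher and 5 lower (median −0.12), and without treated replicate 3 to 5 higher and 13 lower (median −0.55).

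Guidance genes gave 12 higher and 5 lower of 29 tested (median 0.37), 4 tested only through treated arrays. Nrp1, a co-receptor for semaphorins and VEGF, was detected on treated arrays only, at 8.78, 8.71 and 10.06, at least 21.7-fold higher (adjusted p = 3.98e-05). The secreted ligand Slit2 was at least 9-fold higher and its receptor Robo1 rose by 1.58, and the plexins Plxna2 and Plxnb2 went in opposite directions, 3.04 and −1.36. The lower count was between 1 and 3 when any 1 array was left out.

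Treated replicate 3 differed from the other treated arrays in whole groups of genes. Over all tested genes, 339 were at least 2-fold above the mean of treated replicates 1 and 2 in it, and 141 at least 2-fold below. Of the 12582 tested genes 5606 were above that mean, and the median was −0.04. All 17 contractile and YAP/SRF genes were above it, by a median of 1.36, and 6 of 7 fibroblast genes, by 1.73. Matrix genes were above it in 21 of 24, by a median of 0.70. Genes of glycolysis lay on the other side, with 1 of 19 above and a median of −0.65, as did G2/M genes, with 1 of 16 above and a median of −0.57. Core pluripotency genes did too, with 1 of 14 above and a median of −0.52.

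**Figure D4:**
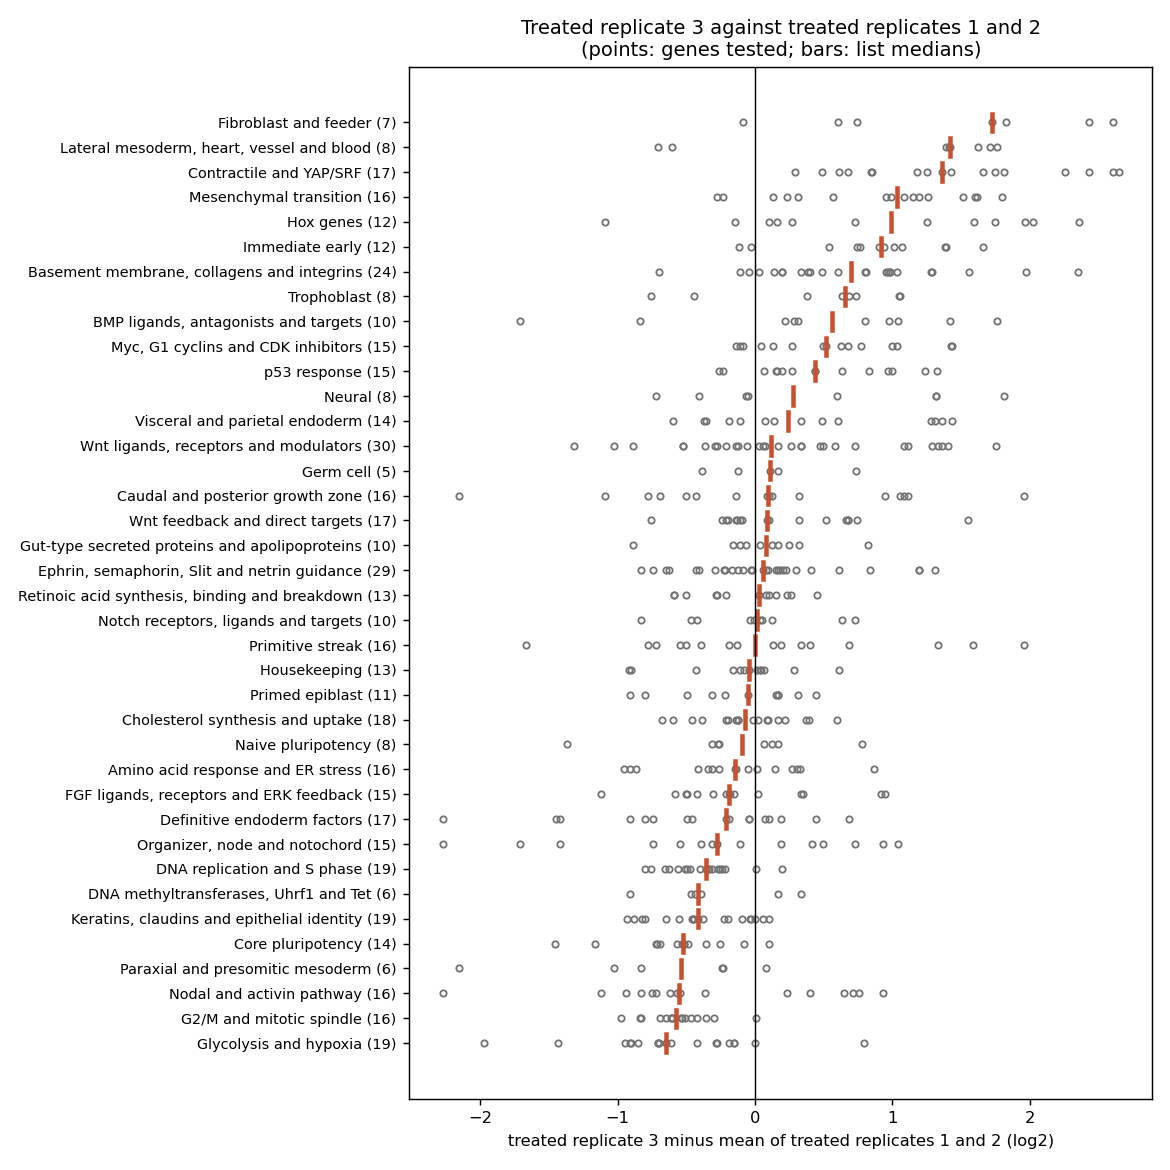
Difference between treated replicate 3 and the mean of treated replicates 1 and 2 (log2) for each tested gene of a list (points), with the list median (red bar) and the number tested in brackets. Fibroblast, lateral mesoderm and contractile lists have medians of 1.73, 1.42 and 1.36, and the glycolysis list −0.65.

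The fibroblast and feeder list had 4 genes higher and 1 lower of 7 tested (median 2.15). The summed signal of its 15 members on the array was 1111, 1171 and 1245 on positive arrays and 2368, 2419 and 10168 on treated arrays. Col1a1, the collagen I chain, read 4.62, 5.71 and 5.01 against 7.71, 7.70 and 9.43 (3.17 ± 0.47, adjusted p = 0.00135). The smooth muscle actin Acta2 read 8.83, 9.10 and 9.09 against 10.27, 10.30 and 12.89 (2.15 ± 0.62, adjusted p = 0.024), a call lost without any 1 positive array. The defining fibroblast markers Col1a2, Col3a1, Lum and Postn were detected on none of the 6 arrays, and Dcn on 1 treated array. Thy1, a surface protein of fibroblasts and also of other cells, fell from 8.17, 7.28 and 7.86 to 5.32, 5.47 and 5.31 (−2.40 ± 0.22, adjusted p = 0.000163).

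Contractile and YAP/SRF genes gave 2 higher and 2 lower of 17 tested (median −0.06), but 9 lower when treated replicate 3 was left out. Ccn2, a matricellular YAP target, read 13.33, 13.09 and 13.26 on positive arrays and 9.56, 9.41 and 12.13 on treated arrays (−2.86 ± 0.63, adjusted p = 0.00769). The angiomotin gene Amotl2 fell by 1.53. The 2 that rose were Acta2 and the receptor kinase gene Axl, and neither was called without any 1 positive array. Tagln, another smooth muscle gene, read 5.66, 5.77 and 8.15 on treated arrays and was not called (1.46 ± 0.60, adjusted p = 0.0828); without treated replicate 3 its difference was 0.64 (adjusted p = 0.0403).

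**Figure D5:**
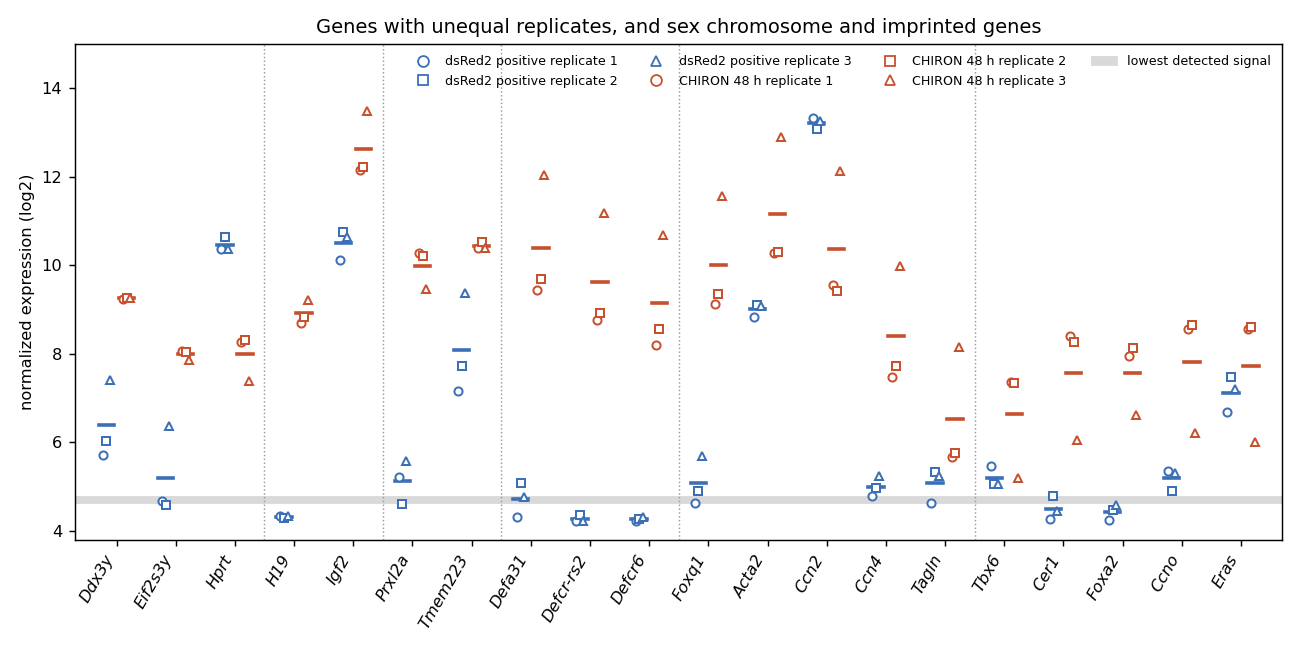
Normalized expression (log2) of 20 genes on the 3 dsRed2 positive arrays (blue) and 3 treated arrays (red), with group means as bars and the lowest detected signal as a grey band. Ddx3y and Eif2s3y are lower on the positive arrays, defensin genes, Acta2, Ccn2, Ccn4 and Tagln are highest among treated arrays on replicate 3, and Tbx6, Cer1, Foxa2, Ccno and Eras are lowest among treated arrays on that replicate.

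Of 16 tested G2/M and spindle genes 15 were called lower and none higher (median −0.92), the exception being Birc5. Nusap1, a spindle protein, fell from 10.87, 10.59 and 10.72 to 9.23, 9.16 and 8.36 (−1.81 ± 0.23, adjusted p = 0.000657), the kinase gene Aurkb fell by 1.32 and the proliferation marker Mki67 fell by 1.31. Genes of DNA replication and S phase gave 3 higher and 3 lower of 19 (median −0.10). Either count fell to 1 without some single arrays: the higher count without positive replicate 1 or 3 or treated replicate 1 or 2, and the lower count without any 1 positive array or treated replicate 3.

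Among Myc, G1 cyclin and CDK inhibitor genes, 9 of 15 rose and 4 fell (median 0.50), 1 of the 15 tested only through treated arrays. Cdkn2a, the locus of the inhibitors p16 and Arf, rose from 4.82, 5.18 and 5.02 to 8.43, 8.66 and 9.98 (4.02 ± 0.36, adjusted p = 0.000163). The inhibitors Cdkn1a and Cdkn1c rose by 1.40 and 1.26, as did Ccnd2, a G1 cyclin, by 1.84. Rgcc, a regulator of the cell cycle, had the largest fall among genes with a symbol, from 11.30, 10.08 and 10.84 to 5.19, 4.96 and 5.35 (−5.58 ± 0.28, adjusted p = 8.28e-06). Genes of the p53 response gave 4 higher and 3 lower of 15 (median 0.13), 1 of the 15 tested only through treated arrays. Cdkn1a and the death receptor Fas (1.09) were higher and the apoptosis gene Bbc3 lower (−1.39). Without positive replicate 1, 2 were called higher. Ccng1, a p53 target, counted as lower by its brightest probe, is left without a direction because its passing probes were called in opposite directions, as those of 75 genes were.

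Immediate early genes, which answer growth signals and handling within minutes, were lower in 7 of 12 tested members (median −0.96). Of the 12, 1 passed the filter only through positive arrays. Fos, an AP-1 subunit, read 10.19, 8.20 and 8.28 on positive arrays and 5.45, 5.20 and 6.23 on treated arrays (−3.26 ± 0.51, adjusted p = 0.00174). Egr1 read 11.03, 9.13 and 8.80 against 7.72, 7.93 and 8.59 (−1.58 ± 0.53, adjusted p = 0.0428), and its call was lost without positive replicate 2 or treated replicate 1 or 2. Positive replicate 1 was the highest array for both. The lower count was 4 without positive replicate 2 or 3 and 3 without treated replicate 1 or 2. Without treated replicate 1 or 3, 2 and 1 members were called higher. The positive cells were sorted, and sorting and treatment cannot be told apart in these genes.

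In the amino acid response 10 of 16 tested genes fell and 1 rose (median −1.09). Slc7a3, a carrier of cationic amino acids, fell from 11.95, 11.88 and 11.86 to 8.01, 8.06 and 7.13 (−4.17 ± 0.24, adjusted p = 1.72e-05). The stress factor Atf4 fell by 1.26 and its targets Chac1, Trib3 and Asns changed by −2.90, −2.53 and −1.45. The member that rose was Xbp1, a factor of the unfolded protein response (0.83 ± 0.14, adjusted p = 0.00259). Cholesterol genes gave 8 lower and none higher of 18 (median −0.49), among them Srebf2, the master regulator of sterol synthesis (−1.10), and with median centring 4 were lower. Glycolysis and hypoxia genes gave 7 lower and none higher of 19 (median −0.37), led in size by Aldoc, an aldolase, with 10.46, 8.75 and 9.21 against 7.48, 7.73 and 5.63 (−2.52 ± 0.59, adjusted p = 0.0103). Without positive replicate 1 or 2 the lower count was 3 and 4, and without treated replicate 3, 1 gene was called higher.

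Housekeeping genes gave 2 higher and 2 lower of 13 tested (median −0.03). Gapdh, Ppia and Eef1a1 differed by −0.03, −0.04 and 0.02 and were not called. Hprt, an X-linked enzyme of purine salvage often used as a reference gene, read 10.37, 10.64 and 10.37 against 8.27, 8.32 and 7.38 (−2.47 ± 0.25, adjusted p = 0.000237). Pgk1 fell by 0.88, a call lost without positive replicate 1 or 2, and the small rise of Gusb (0.48) was lost without treated replicate 1.

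Several large differences lay outside the lists. Sox9, an HMG-box factor of endoderm, neural crest and cartilage, rose from 5.02, 4.93 and 5.42 to 10.02, 10.11 and 10.41 (5.06 ± 0.17, adjusted p = 2.1e-06). Foxq1, a forkhead factor of epithelia, read 9.13, 9.34 and 11.57 on treated arrays (4.94 ± 0.60, adjusted p = 0.000538). The membrane serine protease gene Tmprss2 was detected on treated arrays only, at 9.60, 9.50 and 8.66, at least 22.7-fold higher (adjusted p = 8.28e-06). In the other direction, Gdf15, a stress-induced TGF-β family ligand, read 6.79, 6.61 and 7.39 on positive arrays and was detected on no treated array, at least 4.82-fold lower (adjusted p = 9.43e-05). Ramp3, a partner of calcitonin-family receptors, and Apobec1, an RNA-editing cytidine deaminase, changed by −3.86 and −3.58.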

How the data were processed

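Total RNA was isolated on RNeasy columns, labelled with biotin during TotalPrep amplification and hybridised to one-colour Illumina bead arrays, per the labels' protocols. The file headers name a mean bead signal per probe, deposited as linear intensity without normalization. They also name a detection p-value per probe, which was used as deposited. A table of log2 values from the authors was tried as an alternative; per the submitters' processing notes it came from lumi, of which the version and settings are not given in the sources. Each deposited column followed log2 of its own array's signal with slopes of 0.954 to 1.09, had a median of 6.09 to 6.10, and correlated best with its own array after genes were centred, so its scale and direction are known and its normalization is not.

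Signals of 45281 probes on the 6 arrays were background-corrected by normexp, with negative-control parameters inferred from detection p and an offset of 16, then quantile-normalized on the log2 scale (neqc, limma 3.58.1, R 4.3.3). A probe needed detection p below 0.05 on 3 or more of the 6 arrays, and 18121 passed. Each gene was represented by its brightest passing probe, which gave 12582 genes, 3930 of them with more than 1 passing probe. Of 30869 symbols in the file 16219 were current, 5710 were updated through RefSeq synonyms and 8940 were kept. Groups were compared with lmFit and eBayes, two-sided, with Benjamini-Hochberg adjustment over all genes. With 3 arrays a side an exact permutation test could not go below p = 0.1, so none was used. Fits were tested on simulated data with independent noise for each gene and array. The real arrays were uneven, so that test does not give error rates for them.

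A fold is given as "at least" where the gene's probe failed detection on every array of the dimmer group. The dim value of an array is then the lowest signal detected on it, or the probe's own signal if that is higher, and its group mean is subtracted from that of the brighter group. A gene that passed detection only through the treated arrays was selected where it is high, which favours a call without fixing it. The same holds for genes that passed only through the positive arrays. Counts of lists with such genes, and the adjusted p-values given for them, are therefore descriptions.

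Replicate numbers were not taken as pairs: deviations of same-numbered arrays correlated at 0.10, −0.05 and 0.06. Treated replicates 1 and 2 were kept as separate samples because no measure of array noise was available to judge their closeness.

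Genes were named by a rule: the 12 largest rises and falls, up to 4 members a list with the smallest p and up to 2 in the minority direction, a set of key genes, the 8 most variable genes in each group, the 8 clearest switches each way and 4 genes with opposed probes. The comparison, the lists and the rule were chosen with earlier results of these data known, and 60 more genes, as well as other list members named here, were chosen after their values were seen. Alternatives covered background correction, offset, normalization, the deposited values, filters, probe choice, the 9-array fit, array weights, a replicate block, the averaging of treated replicates 1 and 2, and each array left out.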

Additional observations from a re-analysis of the deposited data

How the results depend on the processing

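The count of called genes, 5210, lay between 3950 and 6638 under the 17 alternatives, and 205 of 254 named genes kept direction and side of the threshold in each one that tested them. When 1 array was left out, it ranged from 3950 to 5212, calls upward from 1992 to 2670 and downward from 1958 to 2542. Calls of at least 2-fold then ranged from 790 to 927 upward and from 765 to 929 downward. Those 2-fold counts depended on how low signals were handled: 348 up and 299 down without background correction, 503 and 479 with an offset of 50, and 363 and 322 with the deposited values. Probes detected on all 6 arrays gave 571 up and 709 down. List medians were also smaller with the deposited values, 1.51 against 2.97 for streak genes, 1.41 against 2.53 for endoderm factors, 0.75 against 1.89 for caudal genes and 0.49 against 1.30 for Hox genes, of which 3 in place of 8 were called. Median centring in place of quantile normalization moved the median of all genes to 0.14 and gave 2624 genes higher and 1327 lower, 66.4% of calls upward against 50.6%; the cause was not tested. Of the 1710 calls of at least 2-fold, 1709 were kept there, and 1706 without treated replicate 3. The pairing by number was weak (above), and a replicate block gave 4975 calls, 2514 higher and 2461 lower. Array weights gave 6638 calls. Only Edn1, the gene of the vasoconstrictor endothelin 1, named after its values were seen, reversed: uncalled at 0.28 with all arrays, it differed by −0.64 without treated replicate 3 (adjusted p = 0.0324), which read 7.59 against 5.05 and 4.59 on the other treated arrays, and ranged up to 0.86 when another array was left out. Genes near the lowest detected signal have only bounds, and bound sizes depend on that signal.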

Other observations

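Imprinted genes of 1 neighbourhood rose together; these genes were chosen after their values were seen. H19, a maternally expressed long RNA, was detected on no positive array and read 8.69, 8.84 and 9.21 on treated arrays, at least 18-fold higher (limma adjusted p = 2.1e-06). Igf2, the paternally expressed growth factor gene beside it, rose from 10.12, 10.76 and 10.65 to 12.15, 12.23 and 13.48 (2.11 ± 0.35, adjusted p = 0.00206). In the 9-array fit H19 was 4.54 above positive and 4.54 above negative cells, which share the treated arrays. The imprinted inhibitor gene Cdkn1c rose as well, by 1.26.

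Other large differences outside the lists were in Prxl2a, a peroxiredoxin-like gene, which read 5.21, 4.60 and 5.57 on positive arrays and 10.27, 10.21 and 9.46 on treated arrays (4.85 ± 0.29, adjusted p = 1.97e-05). In Tmem223, a gene for a mitochondrial membrane protein, positive arrays read 7.17, 7.72 and 9.38 and treated arrays 10.39, 10.52 and 10.39 (2.34 ± 0.48, adjusted p = 0.00552). Positive replicate 3, highest among positive arrays for Tmem223 and Prxl2a, was also the highest for Ddx3y and Eif2s3y. In the 9-array fit Tmem223 was 2.35 above positive and 0.67 above negative cells, and Prxl2a 4.83 and 3.37. The galactose-binding lectin gene Lgals3 rose from 4.76, 6.16 and 5.70 to 10.37, 10.47 and 10.44, and Sox21, a SoxB2 factor, at least 13.6-fold.

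Among genes detected on all 6 arrays, the most variable within the treated group split treated replicate 3 from the others in both directions. Mgarp, a mitochondrial protein of the hypoxia response, read 7.99, 8.08 and 5.38, Eras, a Ras family gene of embryonic stem cells, 8.57, 8.60 and 6.0, and Ccno, a cyclin family gene, 8.57, 8.64 and 6.21. Ccn4, a Wnt-induced matricellular gene, read 7.47, 7.73 and 9.99, and Vgll3, a TEAD cofactor, 6.10, 6.15 and 8.62. Eras was not called with all arrays and differed by 1.46 without treated replicate 3 (adjusted p = 0.00149). Within the positive group Gadd45g, a growth arrest gene, read 9.87, 8.79 and 7.87 and Pdzk1, a scaffold protein gene, 8.37, 6.01 and 7.65.

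Calls were spread unevenly over chromosomes, as a description with no test. On chromosome 15, 14.9% of 423 tested genes were higher and 28.4% lower, and on chromosome 17, 18% of 550 and 26.9%. On chromosome 16, 27.4% of 321 were higher and 15.9% lower, and on chromosome 11, 26.6% of 871 and 16.6%. The shares over all tested genes were 21.0% and 20.5%, but these include genes without a mapped chromosome, so the sets are not the same.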
